A study of Homo sapiens with 7 samples.

Results

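The regions described here lie around 4 genes for transcription factors of the pancreatic progenitor, PDX1, NKX6-1, NKX6-2 and MNX1, in ChIP-seq peak lists for HNF6, GATA6 and NKX6.1. A region belonged to a locus when its midpoint lay within 100 kb of the gene span on hg19. This gave 71 of the 86081 distinct regions of all lists. HNF6 on day 10 had 44 of them, HNF6 on day 5 had 0, GATA6 on day 10 had 9 and NKX6.1 on day 13 had 18. By gene, 27 regions lay at PDX1, 19 at NKX6-1, 11 at NKX6-2 and 14 at MNX1.

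All libraries came from CyT49, an established human embryonic stem cell line, which was differentiated in vitro toward pancreas. HNF6 (ONECUT1) was immunoprecipitated on day 10, labelled PE stage and called pancreatic progenitors by the submitters, and on day 5, labelled GTE stage, which is gut tube endoderm. GATA6 was immunoprecipitated on day 10 (PE stage) and NKX6.1 on day 13 (PP stage). Each factor and day had 1 library, so variation between libraries could not be estimated and nothing was tested. The intervals given cover counting error only. The 3 inputs, of days 5, 10 and 13, were not analysed here. The extraction text speaks of an NKX6.1 antibody throughout, whereas the antibody characteristic of each list matches the factor in its title. Peak lists hold no expression values, so the stage labels could not be checked against marker genes. Read depth is unknown from the lists. A list cannot tell a factor bound in more cells from a factor bound more strongly in each cell.

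PDX1 encodes a homeodomain factor without which the pancreas does not form, and which later drives the insulin gene in beta cells. NKX6-1 and its paralogue NKX6-2 encode homeodomain factors of the progenitor epithelium, and NKX6-1 goes on to maintain beta cell identity. MNX1, also known as HB9, encodes a homeodomain factor needed in the mouse for the dorsal pancreatic bud. Genes of this kind are known to be controlled by their own products and by each other through enhancers that can lie far from the promoter, and the upstream flank of PDX1 is known to hold several conserved enhancers. HNF6 and GATA6 act earlier in the same network. NKX6.1 is the product of NKX6-1, so its regions at that locus lie near its own gene.

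The gene spans were chr13:28494157-28500451 for PDX1, chr4:85414436-85419387 for NKX6-1, chr10:134598297-134599537 for NKX6-2 and chr7:156797547-156803347 for MNX1. PDX1 is transcribed toward higher coordinates and the other genes toward lower ones. None of the 71 regions overlapped a gene span (0 of 71), 7 lay within 2 kb of one and 15 within 10 kb. The spans of NKX6-1 (4952 bp) and NKX6-2 (1241 bp) are shorter than those RefSeq gives on GRCh38.p14 (7308 and 2967 bp), so regions close to either end may lie inside a longer gene model. In the RefSeq order, PDX1 has the long noncoding RNA PLUT and the gene GSX1 on its upstream side and CDX2 on its downstream side. NKX6-1 lies between GPAT3 and CDS1, and MNX1 between NOM1 and UBE3C with MNX1-AS1 beside it. NKX6-2 overlaps INPP5A and has CFAP46 on its upstream side. A region at a locus is therefore assigned by distance and not by target gene.

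**Figure D1:**
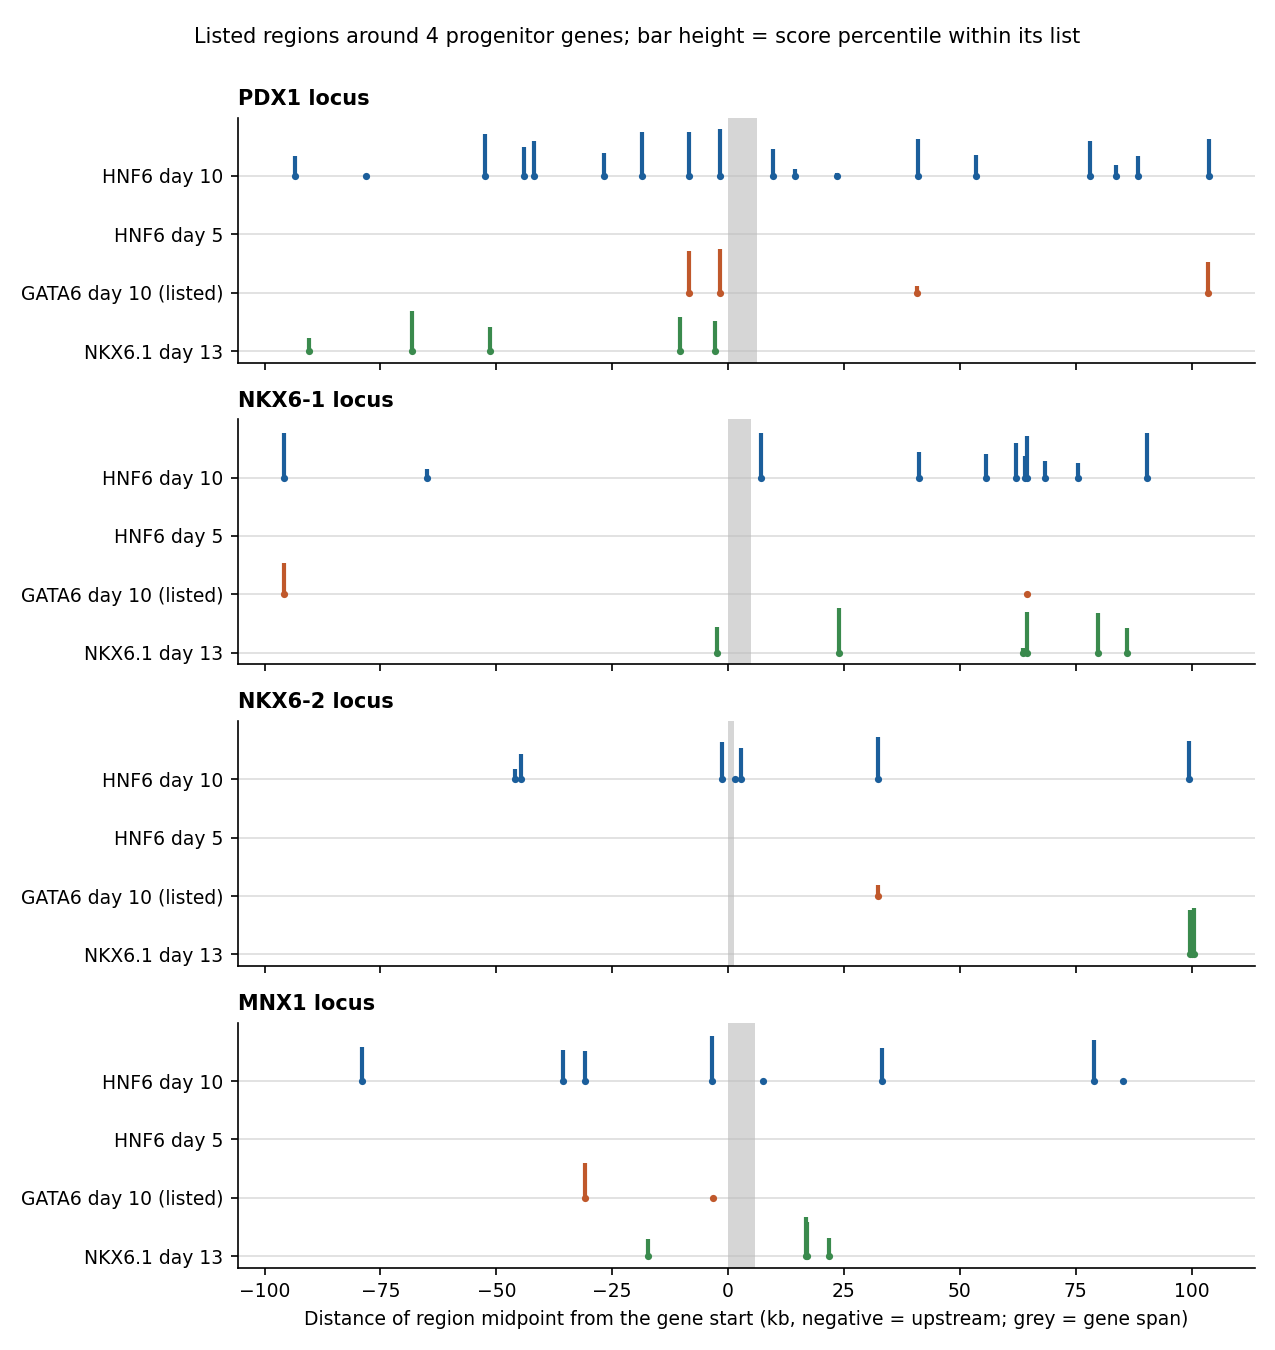
Position of each region midpoint relative to the gene start (x axis, kb, negative values upstream) at 4 loci, with 1 lane per list. Bar height is the percentile of the region's score within its own list, a dot marks the base of each bar and grey marks the gene span. The lane of HNF6 on day 5 is empty at every locus, and the 27 regions at PDX1 include a close upstream group in the lanes of the other 3 lists.

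PDX1 had the densest HNF6 occupancy of the 4 loci. Its window held 18 HNF6 regions of day 10, or 87.3 regions per Mb against 21.3 per Mb over the whole list. That was 4.103 times the list's density (exact Poisson 95% interval 2.43 to 6.48, counting error only). When the chromosomes were divided into consecutive windows of the same width, 0.426% of 14779 windows held at least 18 HNF6 regions. The median window held 4, the mean was 4.39 and the highest count was 25. Counts thus spread more widely than a Poisson interval allows, so the density intervals given here are too narrow. The windows covered whole chromosomes up to the last listed region and were not chosen around genes. Neither they nor the ratio to the list's density show whether PDX1 is dense among genes of its kind. NKX6-1 had 11 HNF6 regions, 2.52 times the list's density (1.26 to 4.52), and 5.87% of windows of its width held at least as many. MNX1 had 8 (1.83 times, 0.789 to 3.60) and NKX6-2 had 7 (1.64 times, 0.658 to 3.37). Windows with at least as many made up 16.9% and 22.3% for MNX1 and NKX6-2, so these counts were close to what is common in the list. The interval of PDX1 overlapped that of every other locus, and no difference among the loci was tested. Against the density of its own chromosome the ratio was 3.53 at PDX1, 2.09 at NKX6-1, 1.70 at MNX1 and 1.52 at NKX6-2. Over the 4 loci the ratio was 2.53 (1.84 to 3.39), and it was 1.998 (1.31 to 2.93) over the other 3 loci without PDX1.

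NKX6.1 regions were also dense, and densest at NKX6-1, the gene for the factor itself. NKX6-1 had 6 NKX6.1 regions, 6.11 times the density of the whole list (2.24 to 13.3), and 0.437% of windows held at least as many. PDX1 had 5 (5.06 times, 1.64 to 11.8, with 1.41% of windows holding at least as many). MNX1 had 4 (4.06 times, 1.11 to 10.4, 3.81% of windows) and NKX6-2 had 3 (3.11 times, 0.642 to 9.10, 10.4% of windows). The intervals of the 4 loci overlapped widely, so no order among them stands above the counting error. Over the 4 loci the ratio was 4.59 (2.72 to 7.26).

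The listed GATA6 regions numbered 4 at PDX1, 2 at NKX6-1, 2 at MNX1 and 1 at NKX6-2. Windows with at least as many made up 0.555% for PDX1, 8.45% for NKX6-1, 8.48% for MNX1 and 30% for NKX6-2. All 6285 listed GATA6 regions overlap an HNF6 region of day 10, so these counts are not independent of the HNF6 density at each locus. The GATA6 list was partial, and its peak numbers rise with position along each chromosome. Another 6 numbered GATA6 peaks fell between the listed ones of the PDX1 window, 1 between those of NKX6-1 and 1 between those of MNX1, and were not analysed here. The GATA6 counts are therefore minimum counts.

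**Figure D2:**
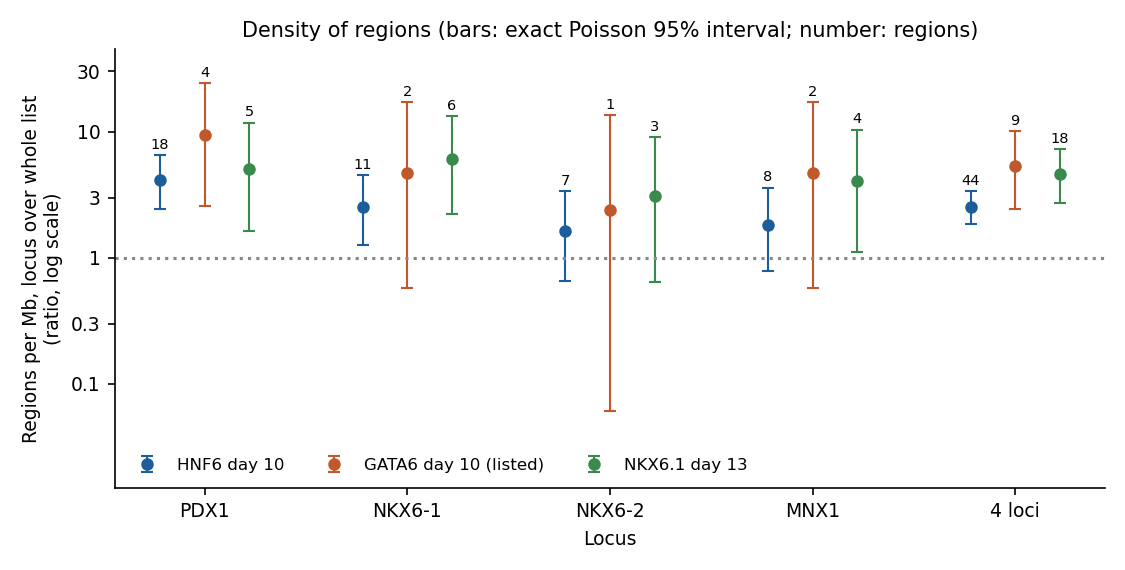
Regions per Mb in each window divided by regions per Mb over the whole list (y axis, ratio on a log scale), by locus and for the 4 loci together. Points are ratios, bars are exact Poisson 95% intervals, and the number above each bar is the count of regions. HNF6 on day 5, with 0 regions at every locus, is not drawn. Every listed GATA6 region overlaps an HNF6 region of day 10, so the GATA6 ratios are not independent of those of HNF6. All ratios drawn lie above 1, and the lower bounds of HNF6 and GATA6 at NKX6-2 and MNX1, of GATA6 at NKX6-1 and of NKX6.1 at NKX6-2 lie below 1.

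HNF6 occupied these loci on day 10 and had no listed region at any of them on day 5. The counts were 44 of 64919 regions on day 10 and 0 of 250 on day 5, and a count of 0 of 250 allows a share of up to 1.2%. The day 5 list averaged 0.0819 regions per Mb, so windows of this length would hold 0.0670 regions at its mean density, against 17.4 at the mean density of the day 10 list. Across consecutive windows as wide as that of PDX1, the day 5 list had a median of 0 and at most 2 regions. The count of 0 on day 5 therefore cannot be told from what so short a list gives by its size. Likewise, 0 of the 44 day 10 regions overlapped a day 5 region, against 0.347% of the whole day 10 list. The day 5 region nearest to a gene start lay 552 kb from PDX1, 2.01 Mb from MNX1, 2.51 Mb from NKX6-1 and 15.3 Mb from NKX6-2.

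At PDX1 the highest scores of HNF6 and of the listed GATA6 regions lay together just upstream of the gene. Every listed GATA6 region overlaps HNF6, so the overlap itself follows from the list. The scores of the 6 unlisted GATA6 peaks of this window are unknown. The authors' score ranks regions within a list, and it is given here as a percentile, the percent of the list with a lower score (ties take the middle rank). The HNF6 region at chr13:28492072-28492561, 1.84 kb upstream of the gene start, had a score of 2118, at the percentile 99.7 and rank 223 in the list. The GATA6 region at chr13:28492150-28492533 lay wholly inside it, with a score of 655 (percentile 93.2). An NKX6.1 region at chr13:28491385-28491487, with a score of 70 (percentile 63.8), lay 584 bp farther upstream and touched neither.

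HNF6 and a listed GATA6 region also lay together 8.36 kb upstream of PDX1. There HNF6 at chr13:28485487-28486116 (score 640, percentile 94.7) and GATA6 at chr13:28485419-28486011 (score 476, percentile 89.1) shared 525 bp. The nearest NKX6.1 region, chr13:28483728-28483817 (score 87, percentile 73.6), lay 1669 bp from the HNF6 region. A further HNF6 region of high score, chr13:28475349-28475758 (score 566, percentile 93.7), lay 18.6 kb upstream and overlapped no other list. The 3 HNF6 regions nearest to the gene on its upstream side thus held the 3 highest HNF6 scores of the locus.

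The other HNF6 regions at PDX1 had percentiles between 3.72 and 89.1, below those of the 3 nearest upstream. On the upstream side, chr13:28441521-28441866 (score 363, percentile 89.1) lay 52.5 kb from the gene start, with an NKX6.1 region of score 56 (percentile 52.3) 873 bp away at chr13:28442740-28442832. On the downstream side the nearest region was chr13:28503781-28504041 (score 97, percentile 57.6). The pair of downstream HNF6 regions that overlapped GATA6 lay 40.9 kb and 104 kb from the gene start. Their HNF6 scores were 195 and 207 (percentiles 78.5 and 79.9), and their GATA6 scores were 42 and 168 (percentiles 14.4 and 66.5). The HNF6 regions of the locus were split evenly, with 9 upstream and 9 downstream, and all 5 NKX6.1 regions of the window were upstream. With 5 regions this shows no preference of side. The first NKX6.1 region outside the window, chr13:28610992-28611070, lay on the downstream side, 111 kb from the span. The NKX6.1 region with the highest score of the locus, chr13:28425805-28425966 (score 133, percentile 86.3), lay 68.3 kb upstream and 9604 bp from the nearest HNF6 region. The remaining one of the 5, 90.3 kb upstream, had a score of 36 (percentile 27.8).

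NKX6-1 held the 1 region of the 4 loci where regions of all 3 factors overlapped, on days 10 and 13. It lay 64.5 kb downstream of the gene start. HNF6 covered chr4:85354634-85355167 (score 360, percentile 88.9), NKX6.1 covered chr4:85354777-85355077 (score 133, percentile 86.3) and GATA6 covered chr4:85354827-85355051 (score 26, percentile 4.53). The regions were nested, with GATA6 inside NKX6.1 and NKX6.1 inside HNF6, and the midpoints of GATA6 and NKX6.1 were 12 bp apart. HNF6 and NKX6.1 were thus high in their lists at this region, and GATA6 was low in its own.

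Several regions surrounded it. A second HNF6 region, chr4:85355272-85355498 (score 73, percentile 46.1), and a second NKX6.1 region, chr4:85355656-85355837 (score 23, percentile 10.7), lay 157 bp from each other. A further HNF6 region, chr4:85356824-85357560, was the widest of the 44 at 737 bp (score 166, percentile 74.7) and was listed as more than 1 peak by the authors. Both NKX6.1 regions of this group were also listed as more than 1 peak, and no other NKX6.1 region of the 4 loci was. Over the 4 loci such regions numbered 2 of 18 for NKX6.1, against 1.09% of the list, and 2 of 44 for HNF6, against 2.11%.

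Close to the NKX6-1 gene, the factors did not coincide. An HNF6 region with a score of 680 (percentile 95.2) lay at chr4:85412098-85412655, 1780 bp beyond the downstream end of the span, and overlapped no other list. On the upstream side an NKX6.1 region at chr4:85421802-85421889 (score 60, percentile 55.4) lay 2.46 kb from the gene start. The highest NKX6.1 score of the locus was 247 (percentile 95.1) at chr4:85395402-85395528, 23.9 kb downstream of the start and 16569 bp from the nearest HNF6 region, the longest such gap of the 18 NKX6.1 regions. The HNF6 region with the highest score of the locus, chr4:85328844-85329205 (score 693, percentile 95.3), lay 90.4 kb downstream. At chr4:85514809-85515438, 95.7 kb upstream, HNF6 (score 627, percentile 94.6) overlapped GATA6 (score 171, percentile 67.1). Of the 11 HNF6 regions of the locus 9 were on the downstream side, as were 5 of the 6 NKX6.1 regions.

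At NKX6-2, HNF6 lay at the gene and NKX6.1 lay at the far edge of the window. HNF6 at chr10:134600496-134601094 (score 207, percentile 79.9) lay 1.26 kb upstream of the gene start and was listed as more than 1 peak. Beyond the downstream end were chr10:134597986-134598162, 134 bp from the span with a score of 22 (percentile 2.93), and chr10:134596537-134596898, 1398 bp from it with a score of 130 (percentile 67.5). The HNF6 region with the highest score, chr10:134566945-134567386 (score 399, percentile 90.3), lay 32.4 kb downstream and held the GATA6 region of the locus, which had a score of 53 (percentile 23.1).

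The 3 NKX6.1 regions of the NKX6-2 locus formed a group that began 99.7 kb downstream of the gene start. They were chr10:134499022-134499198 (score 624, percentile 99.6, rank 55 in its list), chr10:134499376-134499501 (score 131, percentile 86.0) and chr10:134499759-134499922 (score 226, percentile 94.2). The last ended 45 bp short of an HNF6 region, chr10:134499968-134500273 (score 238, percentile 82.6). The first had the highest NKX6.1 percentile of the 4 loci. Its midpoint lay 99.2 kb from the gene span, just inside the limit of the window, and the first NKX6.1 region outside, at 130 kb from the span, had a score of 18 (percentile 5.08). None of these 3 regions lay within 50 kb of NKX6-2, and INPP5A, which overlaps NKX6-2 in the RefSeq table, extends to that side.

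At MNX1 the highest HNF6 score lay just upstream of the gene. The region chr7:156806514-156807029 (score 988, percentile 97.4) lay 3.42 kb upstream of the gene start and overlapped a GATA6 region with a score of 21 (percentile 2.42), chr7:156806503-156806682. The other overlap of HNF6 and GATA6, 30.9 kb upstream at chr7:156833996-156834427, had the reverse order of ranks, with an HNF6 score of 114 (percentile 63.8) and a GATA6 score of 222 (percentile 74.1). On the downstream side the HNF6 region nearest to the gene, chr7:156795740-156795916, had a score of 16 and the lowest percentile of the 44, 0.585. No NKX6.1 region overlapped these. The 4 NKX6.1 regions of the locus included an adjacent pair 17.0 and 16.7 kb downstream of the start, with scores of 88 and 120 (percentiles 74.1 and 84.0), and the nearest HNF6 region to any of the 4 was 9072 bp away.

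HNF6 regions at the 4 loci carried GATA6 in 9 of 44 cases, or 20.5% (Wilson 95% interval 11.2 to 34.5), against 9.66% of the whole HNF6 list. They were found at every locus, in 4 of 18 at PDX1, 2 of 11 at NKX6-1, 1 of 7 at NKX6-2 and 2 of 8 at MNX1. The share moves with HNF6 score in the list as a whole. In the highest score decile 5 of 8 regions at the loci had GATA6 (62.5%, 30.6 to 86.3), against 35.4% of the list. In the highest quartile it was 8 of 16 (50%, 28 to 72), against 22.6%. Below that quartile it was 1 of 28 (3.57%, 0.633 to 17.7), against 5.35%. Among these score groups only the interval of the highest quartile left out the share of the list. All 9 GATA6 regions of the loci overlapped HNF6 by choice of the list, since 100% of listed GATA6 regions do. The midpoints of the 9 pairs lay 17.5 to 179 bp apart, with a median of 38.5 bp.

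Regions at the loci were spread over the score range of their lists. For HNF6 28 of 44, or 63.6% (48.9 to 76.2), had a score above the list's median, against 49.8% of the list. In the highest decile were 8 of 44, or 18.2% (9.51 to 32.0), against 10% of the list, so both intervals held the share of the list. The HNF6 percentiles ran between 0.585 and 99.7 with a median of 65.0. For NKX6.1 14 of 18, or 77.8% (54.8 to 91.0), were above the median, against 49.5%, and 3 of 18, or 16.7% (5.84 to 39.2), were in the highest decile, against 10%. For GATA6 1 of 9 was in the highest decile, against 9.99%, and 4 of 9 were in the lowest quartile. With 9 regions neither count can be told from the share that a decile or a quartile holds by definition. The median GATA6 percentile was 66.5 over the 4 loci and 23.1 over the other 3 without PDX1. HNF6 regions with GATA6 had a median HNF6 percentile of 90.3 and a median width of 490 bp. Those without it had a median percentile of 54.0 and a median width of 257 bp. The same contrast holds over the whole HNF6 list, with medians of 82.4 and 360 bp with GATA6 and of 47.5 and 254 bp without it.

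**Figure D3:**
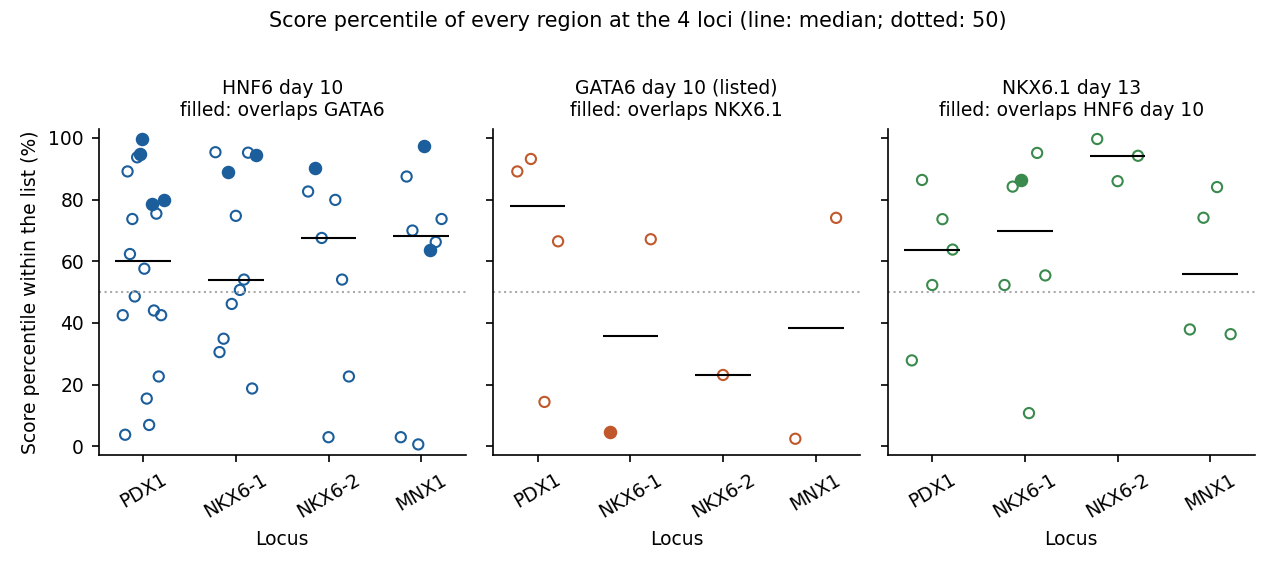
Score percentile within its own list (y axis, percent) of every region at the 4 loci (x axis), in 1 panel per list. Filled points overlap the list named above the panel, horizontal lines are medians and the dotted line marks 50. Of the 9 filled HNF6 points 8 lie above the percentile 75, and the filled NKX6.1 point is the 3-factor region at NKX6-1.

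At these loci 6 NKX6.1 regions lay within 1 kb of an HNF6 region without touching it, and 1 overlapped one. Of the 18 NKX6.1 regions 1 overlapped an HNF6 region of day 10, or 5.56% (0.988 to 25.8), against 14.3% of the whole NKX6.1 list. Seen from HNF6, 1 of 44 regions had NKX6.1, against 3.2% of the list, and the same region also had GATA6, a state found in 1.15% of the list. With so few regions these counts cannot be told from the shares of the lists. In the other direction, 1 of 18 NKX6.1 regions had GATA6, against 5.18%, and 1 of 9 GATA6 regions had NKX6.1, against 11.8%.

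The count within 1 kb was not among the planned results, and was set beside that of the list in the same way. Of the 17 NKX6.1 regions that touched no HNF6 region, 6 had one within 1 kb of their edge, or 35.3% (17.3 to 58.7), against 9.96% of such regions in the list. They were the 3 regions of the NKX6-2 group with gaps of 769, 466 and 45 bp, those at PDX1 with gaps of 873 and 584 bp, and one at NKX6-1 with a gap of 157 bp. The NKX6-2 group lies beside 1 HNF6 region, so these 6 regions stand for 4 places. The interval takes all 17 regions as independent and is therefore too narrow to set this share apart from the list. With overlaps included, 7 of 18 lay within 1 kb, or 38.9% (20.3 to 61.4), against 22.9% of the list, and 11 of 18 within 5 kb, against 38.4%. The share depended on the window. Within 50 kb of the gene spans 1 of 8 NKX6.1 regions lay within 1 kb of HNF6, or 12.5% (2.24 to 47.1). None of these 8 overlapped HNF6. The interval holds both the 22.9% of the list with overlaps and the 9.96% without them, so it gives no direction. Within 200 kb it was 7 of 24 with overlaps, or 29.2% (14.9 to 49.2). Without overlaps it was 6 of 23, or 26.1% (12.5 to 46.5). The median gap was 3.49 kb at the loci and 9.07 kb in the whole list. HNF6 regions were themselves denser at the loci, by the ratio of 2.53 given above, and the part of that density in the shorter gaps was not tested. At MNX1 all 4 NKX6.1 regions lay over 9 kb from HNF6. The median gap of the whole list, 9.07 kb, is of similar size, so these 4 cannot be told from the list. Factor, antibody, day and library differ together between the NKX6.1 and HNF6 lists and cannot be told apart.

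**Figure D4:**
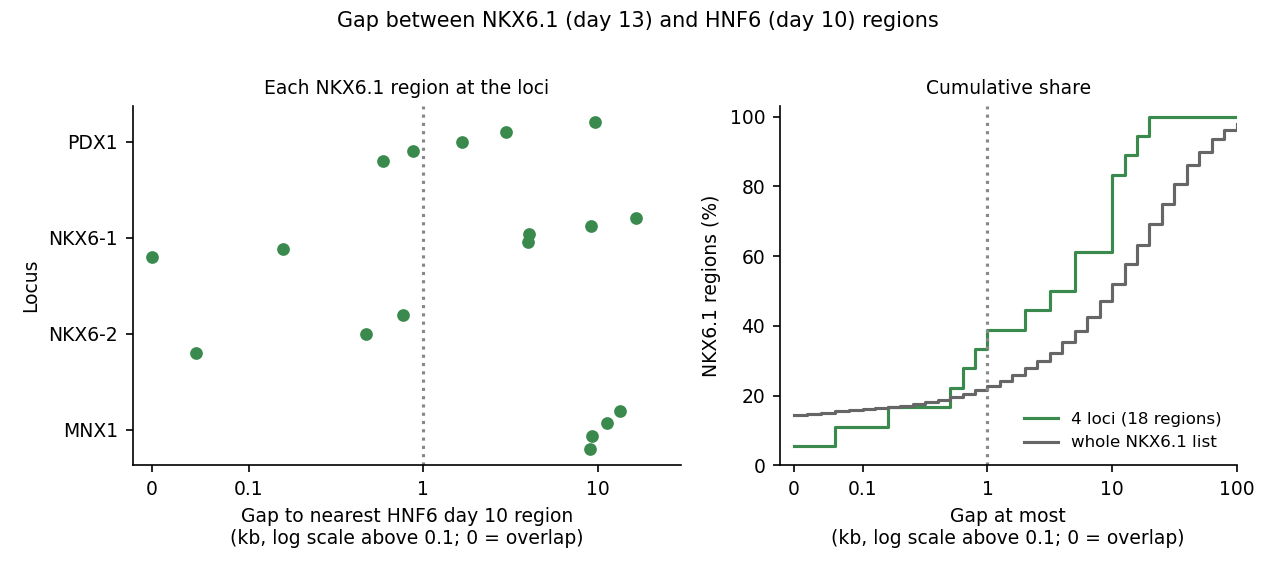
Left, gap between each NKX6.1 region and the nearest HNF6 region of day 10 (x axis, kb, log scale above 0.1, with 0 for overlap) by locus. Right, percent of NKX6.1 regions with a gap no longer than the value on the x axis, for the 18 regions of the loci and for the whole NKX6.1 list, with a dotted line at 1 kb. The curve of the loci starts below that of the list, at 5.56% against 14.3%, and stands above it at 1 kb, at 38.9% against 22.9%.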

How the data were processed

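The submitters' processing notes name the build hg19, MACS2 (2.1.1.20160309) and Bowtie2 (2.3.4.1) but no settings. The authors deposited 1 list of peaks per library, in which each peak has a position and a whole-number score of unstated unit. The score served only for ranks and filters inside its own list. Rows with the same coordinates were merged with the highest score, and tied scores share a percentile. Coordinates are 1-based. Overlap needed 1 bp (Python 3.11.15, pandas 2.3.3) and matched bedtools 2.31.1. Intervals (scipy 1.17.1) cover counting error only and take regions as independent of each other. Density over a whole list used 3052 Mb, the summed farthest positions of the chromosomes. The code was tested on simulated data. Strands of NKX6-1 and MNX1 are from RefSeq, the others from general knowledge.

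Regions could be named where a list had 10 or fewer at a locus, where they overlapped another list, were nearest to the gene start or had 1 of the 5 highest scores. The HNF6 regions at chr13:28503781-28504041 and chr4:85355272-85355498 were added after their values were seen. Other pancreatic regulator genes were planned and not counted, since the RefSeq table is on GRCh38.p14. The loci and lists were chosen with earlier results of these data known.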

Additional observations from a re-analysis of the deposited data

How the results depend on the processing

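Most counts at the 4 loci follow the window by construction. With windows of 50 kb there were 24 HNF6 regions of day 10, 8 NKX6.1 regions, 0 regions of HNF6 with NKX6.1 and 0 with all 3 factors; with windows of 200 kb there were 72 HNF6 regions. With scores above the median of each list, 28 HNF6 and 5 GATA6 regions stayed, 5 regions held HNF6 and GATA6, and 0 held all 3, since the GATA6 score of the 3-factor region is low. The densities stayed within their intervals, at 1.998 to 3.23 times the list for HNF6 and 3.10 to 7.22 times for NKX6.1. The share of HNF6 regions with GATA6 was 15.3 to 25% under all settings, and stricter overlap changed no count. Leaving out each locus, added after seeing the data, gave 5 regions with HNF6 and GATA6 without PDX1, and 0 with NKX6.1 and 0 with all 3 factors without NKX6-1. NKX6.1 regions within 1 kb of HNF6 numbered 1 of 8 with windows of 50 kb (12.5%, 2.24 to 47.1, against 22.9% of the list). With windows of 200 kb they numbered 7 of 24 (29.2%). By distance between midpoints they numbered 5 of 18, and the share of the list by that distance was not computed. No paired analysis was possible because each factor and day had 1 library.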
